A study of Mus musculus with 8 samples.

Results

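The mitochondrial chromosome of the mouse carries 37 annotated genes, namely 2 ribosomal RNAs (rRNAs), 13 protein-coding mRNAs and 22 transfer RNAs (tRNAs). These 37 genes were all those that the GENCODE M21 annotation places on chromosome M, out of 46078 gene identifiers listed in the count tables. RNA-seq had been performed on 8 samples of female mouse embryonic fibroblasts (MEFs), labelled as a cross of the strains 129S1/SvImJ (129) and CAST/EiJ (CAST). The study's text names 129Sv4/Jae as the source of the Xi and used 129S1/SvImJ as the reference for single nucleotide polymorphisms (SNPs), and each read that covered a SNP was assigned to 129 or CAST. The study asked how loss of Xist, the RNA that coats the inactive X chromosome (Xi), and knockdown of the transcription factor YY1 change gene expression.

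There were 4 groups of 2 samples. WT cells carried an intact Xist on the Xi, and XiΔXist cells carried a deletion of it. XiΔXist shSCR cells carried the same deletion and received a scrambled short hairpin RNA (shRNA). XiΔXist shYY1 cells carried the deletion and received an shRNA against YY1. Both hairpins were delivered by lentivirus with puromycin selection, and the study's text describes the cells as clonal lines, so that each genotype is represented by a line rather than by separate embryos. The 2 shYY1 samples used different hairpins. The replicates of each group had been pooled before the reads were split by strain, so each group gave 1 pool with 1 count per gene and strain. No spread between replicates could therefore be computed, no p-values are given, and every 95% interval covers counting error alone, in which reads copied by PCR are counted as if they were separate molecules.

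Mitochondrial DNA is a small circle that is inherited through the mother. It is transcribed from both strands as long precursors, which are cut at the tRNAs into separate rRNAs, mRNAs and tRNAs. The rRNAs build the mitochondrial ribosome, and the mRNAs encode core subunits of respiratory complexes I, III and IV and of ATP synthase. Here 28 genes were annotated on the plus strand of the chromosome, called the heavy-strand group (both rRNAs, 12 mRNAs and 14 tRNAs), and 9 on the minus strand, called the light-strand group (mt-Nd6 and 8 tRNAs).

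The pools held 19402167 (WT), 22025627 (XiΔXist), 1514637 (shSCR) and 1515927 (shYY1) allelic reads of nuclear genes, and levels are given as allelic reads of a gene per 1000000 of these (CPM). Only reads over a SNP were counted, so CPM can be compared between the 2 untreated pools and between the 2 hairpin pools, but not between genes. All 37 genes together had 252955 CPM in WT, 286215 in XiΔXist, 580276 with shSCR and 652022 with shYY1. The hairpin pools stood apart from the untreated pools in most genes, nuclear ones included, and the 2 kinds of pool also differed in read length. Hairpin treatment and read length cannot be told apart in these data. Read length also changes how many reads of a gene cover a SNP, so values of the 2 kinds of pool are only described side by side. Fewer cells of a kind and less RNA per cell cannot be told apart in bulk samples either. Of 10 fibroblast markers, 10, 10, 8 and 9 had reads in WT, XiΔXist, shSCR and shYY1, with a summed level of 4977 to 14942 CPM. Within the pairs compared, 3 of 9 markers with at least 50 reads were at least 1.5-fold higher in XiΔXist than in WT (Dcn 3.16-fold, Thy1 2.99-fold and Col3a1 1.80-fold), and 3 were at least 1.5-fold lower (Col1a1 at 0.435, Col1a2 at 0.483 and Pdgfra at 0.534 times WT), beside 9.15% and 16.4% of all genes. In shYY1 against shSCR, 3 of 8 were higher, among them Col3a1 (2.48-fold) and Col1a2 (1.55-fold), and 0 were lower, beside 7.03% and 7.12% of all genes. Their part in the mitochondrial values was not tested. The markers Dcn and Lum were at 0 in shSCR, and Dcn had 1 read and Lum 0 in shYY1. Of 12 markers of other cell types, 3 to 7 had reads, with a summed level of 4.13 to 6.80 CPM, and Krt18, Adipoq and Myod1 were at 0 in all 4 pools. Only 2 of them had at least 50 reads in WT and XiΔXist together. Cdh5 was 3.45-fold higher in XiΔXist (12 and 47 reads) and Tubb3 was at 0.203 times WT (87 and 20 reads), beside 9.15% and 16.4% of all genes. In the hairpin pools 0 had 50 reads.

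Of the 37 genes, 18 were listed at 0 reads for both strains in all 4 pools, namely 6 mRNAs and 12 tRNAs. They were not spread evenly. From mt-Ts1 to mt-Nd4l (chrM:6870-10173, GRCm38), all 11 of 11 genes were at 0, whereas 7 of the other 26 genes were. The 6 mRNAs at 0 were mt-Co2 and mt-Co3 (subunits of complex IV), mt-Atp6 and mt-Atp8 (subunits of ATP synthase) and mt-Nd3 and mt-Nd4l (subunits of complex I). No ATP synthase mRNA therefore gave a value, and a 0 here does not show that a gene was not transcribed. Only reads over a SNP were counted, so a gene without a SNP is also listed at 0. The SNPs in each gene were not counted here. Reads with a mapping quality below 30 had been removed by the authors, a filter that also takes out reads aligning equally well at several places.

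The stretch without reads matched nuclear copies of mitochondrial DNA on chromosome 1. Among annotated nuclear transcripts, 7 pseudogenes at chr1:24611535-24616197 (minus strand) were at least 99.7% identical to mitochondrial positions 6390 to 11042 and lay in the same order. They covered 99.6% of mt-Co2 (Gm28661), 99.6% of mt-Atp6 (Gm10925), 99.9% of mt-Co3 (Gm28437), 99.1% of mt-Nd3 (Gm28438) and 98.99% of mt-Nd4l (Gm10222). The remaining mRNA at 0, mt-Atp8, had 21.1% of its length in such a copy. None of the 12 tRNAs at 0 had any base in an annotated copy of 99% identity or more, neither the 5 inside the stretch nor the 7 outside it (mt-Tl1, mt-Tm, mt-Tc, mt-Ty, mt-Th, mt-Tl2 and mt-Te). The bases between annotated pseudogenes were not searched. All 11 genes that lay wholly within these positions were at 0, and so were the 7 pseudogenes themselves. The 2 genes at the edges of the block kept reads, with 31.3% of mt-Co1 (its last 483 bases, in Gm29216) and 63.6% of mt-Nd4 (its first 876 bases, in Gm28439) in a near-identical copy. Of the other 5 mRNAs with reads, none had any base in a copy of 99% identity or more.

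As examples picked by hand, 5 pairs of 60 bases are shown, with the mitochondrial gene first, an annotated nuclear copy second, and each differing base in capitals. They come from the GENCODE M21 transcripts (GRCm38). The first 2 pairs are from genes at 0, the start of mt-Co2 (chrM:7013-7072, plus strand) and of mt-Nd3 (chrM:9459-9518, plus strand). The last 3 pairs are from genes with reads, the start of mt-Co1 (chrM:5328-5387, plus strand), bases 2 to 61 of mt-Cytb (chrM:14146-14205, plus strand) and the start of mt-Nd6 (chrM:14011-14070, minus strand).
mt-Co2: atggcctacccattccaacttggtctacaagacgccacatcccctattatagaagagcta
Gm28661: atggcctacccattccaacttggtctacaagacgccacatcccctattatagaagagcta
mt-Nd3: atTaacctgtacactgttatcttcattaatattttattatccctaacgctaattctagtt
Gm28438: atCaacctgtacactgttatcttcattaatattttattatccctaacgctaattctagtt
mt-Co1: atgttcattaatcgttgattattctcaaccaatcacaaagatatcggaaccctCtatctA
Gm13340: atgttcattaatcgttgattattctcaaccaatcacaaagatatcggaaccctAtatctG
mt-Cytb: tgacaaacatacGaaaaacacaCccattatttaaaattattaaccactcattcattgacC
Gm11410: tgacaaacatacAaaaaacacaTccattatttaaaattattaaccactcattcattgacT
mt-Nd6: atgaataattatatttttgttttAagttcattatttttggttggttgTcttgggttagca
Gm11408: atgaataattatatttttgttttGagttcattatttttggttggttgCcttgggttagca

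The windows of the 2 genes at 0 differed from their copies at 0 and 1 of 60 bases, and those of the 3 genes with reads at 2, 3 and 2. These counts hold for the windows picked and are no test. Over the whole alignment, the copy was 97.6% identical for mt-Co1 (Gm13340), 92.9% for mt-Cytb (Gm11410) and 93.6% for mt-Nd6 (Gm11408). The closest copy of mt-Co1, Gm29216, is not the one shown, and was 99.8% identical over the last 483 bases of this gene, which kept reads. The mapping of single reads was not examined, and the part that the copies play in the zeros was not tested.

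**Figure D1:**
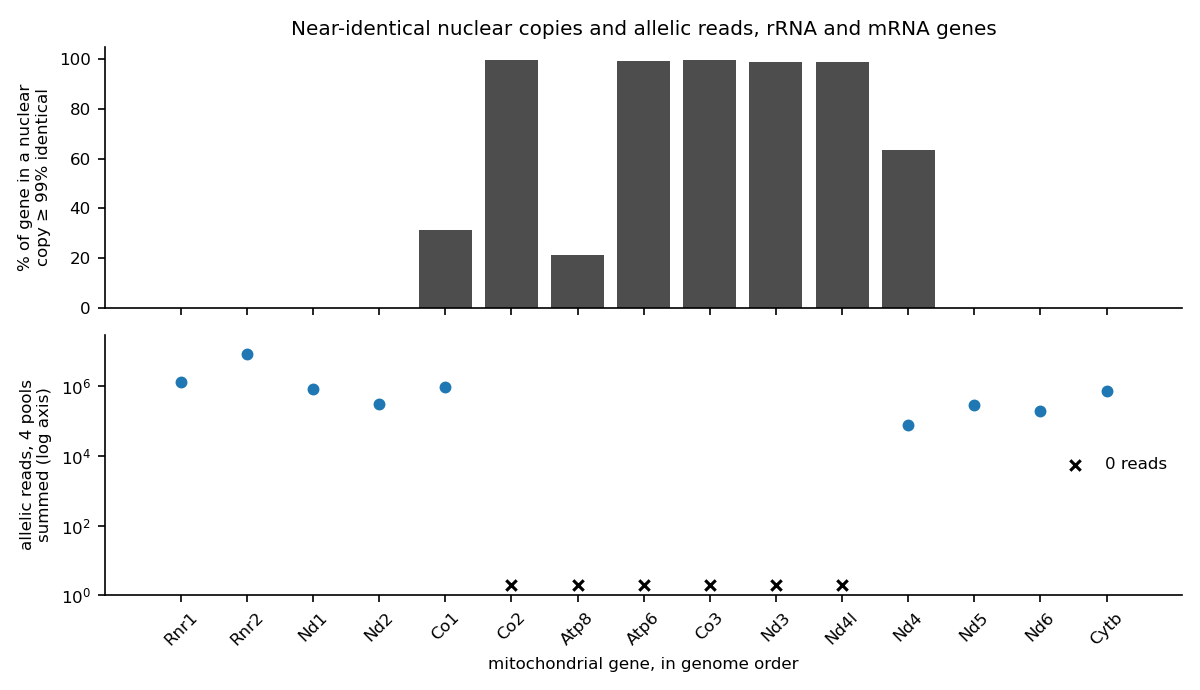
The upper bars show, for each rRNA and mRNA gene in genome order, the percent of its length that lies in an annotated nuclear copy of at least 99% identity, and the lower points show its allelic reads summed over the 4 pools on a log axis. The 6 genes marked with a cross had 0 reads, and 5 of them had 98.99% to 99.9% of their length in such a copy.

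Reads in the remaining genes carried the 129 base almost throughout. In WT 6302 of 4907868 mitochondrial reads were assigned to CAST, or 0.128% (exact binomial 95% interval 0.125% to 0.132%). The CAST share was 0.115% in XiΔXist, 0.00978% with shSCR and 0.0105% with shYY1. Nuclear reads of the same pools were 71.1% to 71.5% 129. Among genes with at least 50 reads, 17 of 18 mitochondrial genes had a 129 share of at least 99% in WT, against 35.2% of all 9248 such genes. The count was 17 of 18 in XiΔXist (35.1% of all genes), 9 of 9 in shSCR (34.7%) and 9 of 9 in shYY1 (35.1%). The mitochondrial transcripts of all 4 pools thus matched 129 at the SNP positions read. The labels name the cross but not which strain was the mother.

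The exception was mt-Nd1, a complex I subunit. It had 5001 CAST reads of 400442 in WT (1.25%, interval 1.21% to 1.28%) and 5535 of 442692 in XiΔXist (1.25%, interval 1.22% to 1.28%). In the hairpin pools it had 1 CAST read of 2149 in shSCR (interval up to 0.259%) and 0 of 3132 in shYY1 (interval up to 0.118%, or 0.0958% by a limit of 3 reads). The untreated pools thus lay above the hairpin pools beyond counting error. This gene alone supplied 79.4% of the mitochondrial CAST reads in WT and 76.5% in XiΔXist. Without it the CAST share was 0.0289% in WT, 0.0290% in XiΔXist, 0.00969% with shSCR and 0.0106% with shYY1. No annotated nuclear transcript matched mt-Nd1 over at least 100 bases at 85% identity or more. Among the other genes with at least 50 reads, the highest CAST share was 0.613% in mt-Tn, from 2 of 326 reads in WT.

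**Figure D2:**
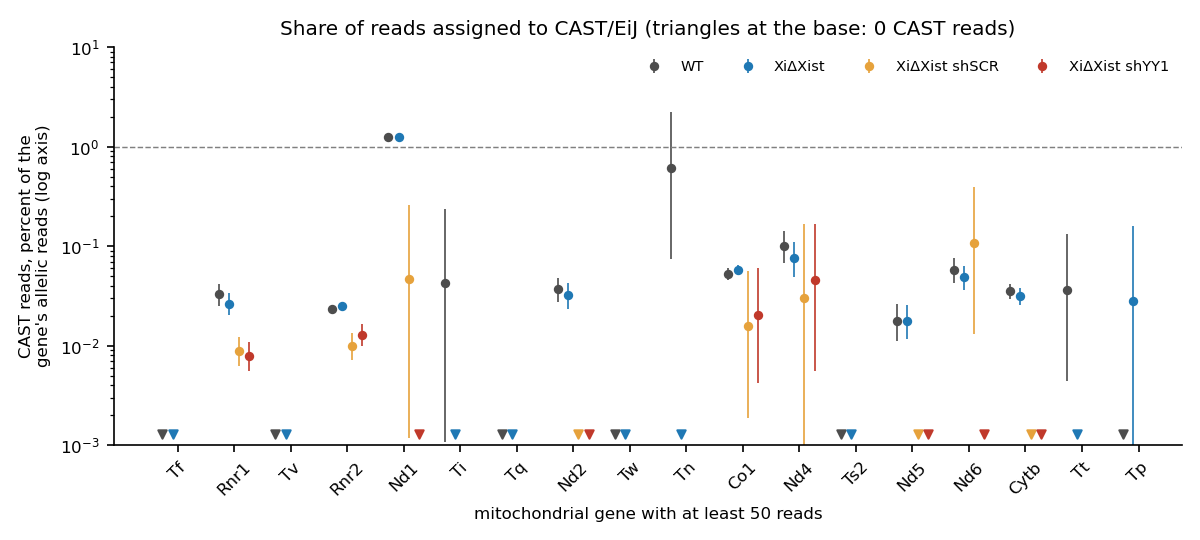
Points show the percent of each gene's allelic reads assigned to CAST/EiJ (log axis) in each pool, with exact binomial 95% intervals, for genes with at least 50 reads in the pool. The dashed line marks 1%, and only mt-Nd1 in WT and XiΔXist, at 1.25% in both, lies above it.

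The 2 rRNAs were the most read mitochondrial genes in the hairpin pools, and mt-Rnr2 was the most read in the untreated pools. The 12S rRNA mt-Rnr1 (ENSMUSG00000064337, chrM:70-1024), of the small ribosomal subunit, had 9749 CPM in WT, 10339 in XiΔXist, 282919 with shSCR and 315411 with shYY1. The 16S rRNA mt-Rnr2 (ENSMUSG00000064339, chrM:1094-2675), of the large subunit, had 163503 in WT, 194283 in XiΔXist, 278700 with shSCR and 312663 with shYY1. Both were higher in each perturbed pool than in its control, and mt-Rnr1 differed far more between untreated and hairpin pools than within either pair. The 2 rRNAs are separated only by mt-Tv and come from the same precursor. Their read ratio, mt-Rnr2 to mt-Rnr1, was 16.8 in WT, 18.8 in XiΔXist, 0.985 with shSCR and 0.991 with shYY1.

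The mRNAs made up 31.2% of mitochondrial reads in WT and 28.2% in XiΔXist, but 3.21% with shSCR and 3.67% with shYY1. The ratio of rRNA to mRNA reads was 2.19 (interval 2.19 to 2.20) in WT, 2.53 (2.53 to 2.54) in XiΔXist, 30.1 (29.8 to 30.5) with shSCR and 26.2 (26.0 to 26.5) with shYY1. It was thus higher in XiΔXist than in WT and lower in shYY1 than in shSCR. These ratios depend on how many SNPs each gene holds, on read length and on the 6 mRNAs without reads. They can therefore be compared only between pools of the same kind, untreated or hairpin. Whether rRNA was depleted or poly(A) RNA selected before sequencing is not given in the sources used here.

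**Figure D3:**
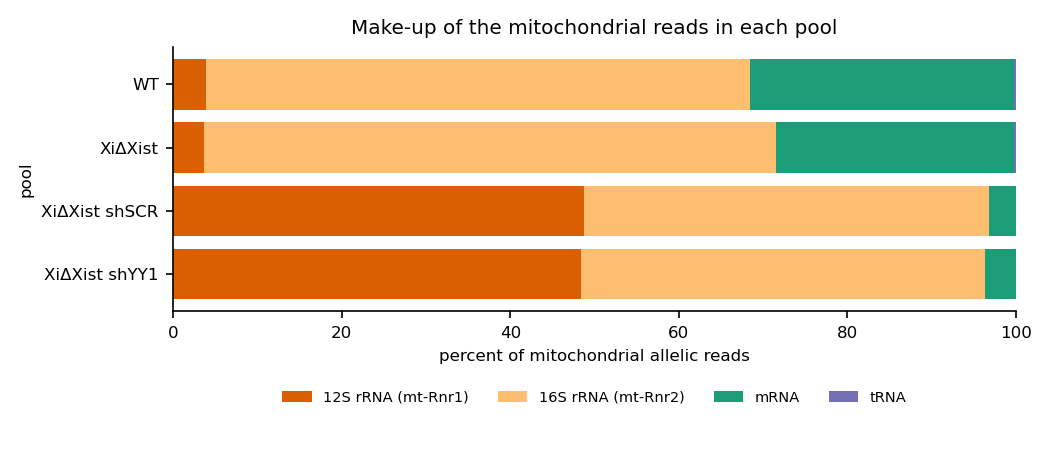
Stacked bars show the percent of mitochondrial allelic reads in each pool that fell in mt-Rnr1, mt-Rnr2, the mRNAs and the tRNAs. The rRNAs hold 68.5% and 71.5% of the reads in WT and XiΔXist and 96.8% and 96.3% in shSCR and shYY1, and the tRNA share of at most 0.277% is too thin to see.

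Of the 7 complex I mRNAs, 5 had reads. The level of mt-Nd1 (ENSMUSG00000064341, chrM:2751-3707) was 20639 CPM in WT, 20099 in XiΔXist, 1419 with shSCR and 2066 with shYY1. That of mt-Nd2 (ENSMUSG00000064345, chrM:3914-4951) was 7720 in WT, 6530 in XiΔXist, 1172 with shSCR and 1821 with shYY1. That of mt-Nd4 (ENSMUSG00000064363, chrM:10167-11544) was 1658 in WT, 1558 in XiΔXist, 2183 with shSCR and 2872 with shYY1. The first 2 were far lower in the hairpin pools, while mt-Nd4 was the one mRNA higher there. For mt-Nd5 (ENSMUSG00000064367, chrM:11742-13565) the level was 6737 in WT, 6981 in XiΔXist, 1105 with shSCR and 1539 with shYY1. For mt-Nd6 (ENSMUSG00000064368, chrM:13552-14070, minus strand), the one mRNA of the light-strand group, it was 4281 in WT, 5058 in XiΔXist, 1218 with shSCR and 1903 with shYY1. All 5 were higher in shYY1 than in shSCR, whereas XiΔXist was above WT in mt-Nd5 and mt-Nd6 and below it in the other 3.

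The complex III subunit mt-Cytb (cytochrome b, ENSMUSG00000064370, chrM:14145-15288) had 17757 CPM in WT, 16536 in XiΔXist, 3118 with shSCR and 4071 with shYY1. The complex IV subunit mt-Co1 (ENSMUSG00000064351, chrM:5328-6872), which forms the catalytic core of cytochrome c oxidase, had 20215 in WT, 24039 in XiΔXist, 8437 with shSCR and 9674 with shYY1. Within a pool, mt-Co1 reads were 0.979 times those of mt-Nd1 in WT, 1.20 in XiΔXist, 5.95 with shSCR and 4.68 with shYY1. This read ratio also differed more between untreated and hairpin pools than within either pair. It depends on SNPs and read length as well, so across the 2 kinds of pool it does not measure the balance of the 2 mRNAs.

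tRNA genes are 59 to 75 bases long, and 10 of the 22 had any read. In the untreated pools 9 passed 50 reads in WT and XiΔXist together. The most read was mt-Tt (threonine), with 284 CPM in WT and 332 in XiΔXist, followed by mt-Tp (proline) with 149 and 160, and mt-Ti (isoleucine) with 121 and 136. The other 6 had 3.97 to 82.2 CPM in these pools, and mt-Ta (alanine) had 1 read in WT and 5 in XiΔXist. In the hairpin pools only mt-Tv (valine), with 2 and 2 reads, and mt-Tp, with 5 and 2, were detected at all. For the 7 tRNAs at 0 in shSCR, a count of 3 reads corresponds to 1.98 CPM. Against that limit their counted level was from at least 3.07-fold (mt-Tw) to at least 168-fold (mt-Tt) lower than in XiΔXist. The wider exact intervals of the ratio to XiΔXist reached up to 0.406 for mt-Tw and 0.00733 for mt-Tt. Read length differed between these pools and may change how many reads are counted in genes this short. These bounds are therefore a description and cannot be read as a fall of tRNA in the cells.

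**Figure D4:**
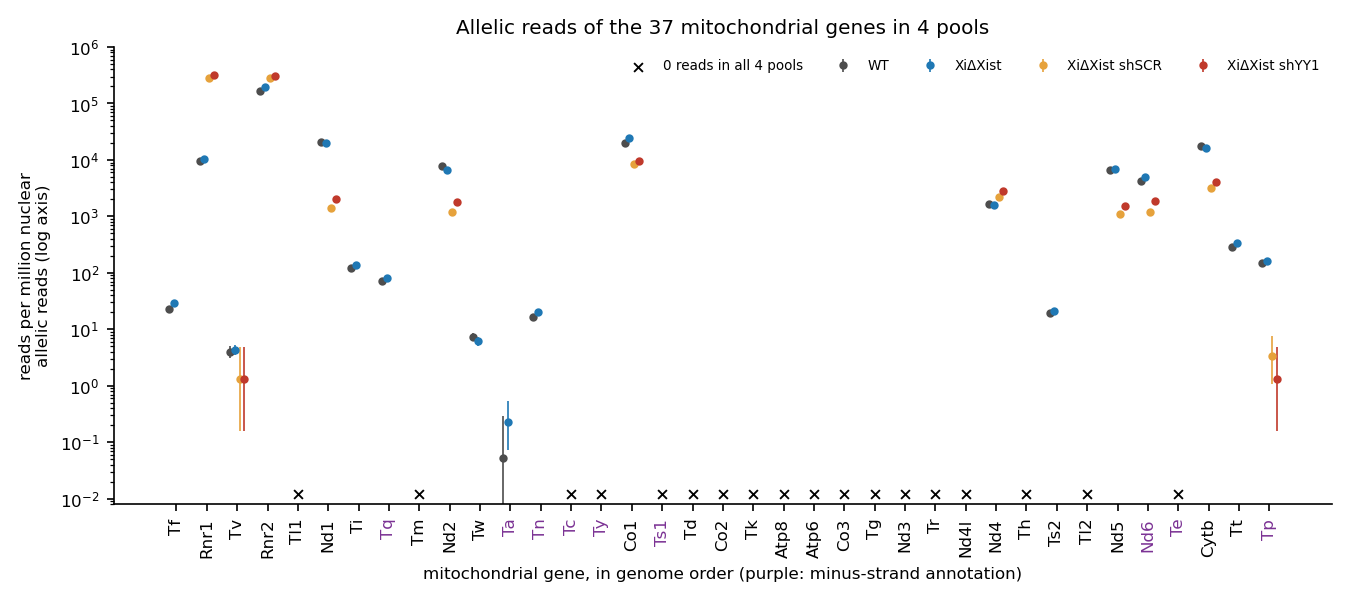
Points show the level of each of the 37 genes in genome order, as CPM on a log axis, in the 4 pools, with exact Poisson 95% intervals that cover counting error. The run of crosses from Ts1 to Nd4l marks the 11 neighbouring genes without reads, and mt-Rnr1 is the gene where the 2 hairpin pools lie farthest above the untreated pools.

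XiΔXist was first compared with WT to see whether mitochondrial transcripts differed after Xist deletion. No mitochondrial gene with at least 50 reads reached a 1.5-fold difference (0 of 18), against 9.15% of all 10763 genes that were at least 1.5-fold higher and 16.4% that were at least 1.5-fold lower. That background includes genes with few reads. With at least 200 reads the calls among all genes fell from 2749 to 1624, and the mitochondrial count stayed at 0. The mitochondrial differences were small but far outside counting error for most genes. The largest among the mRNAs and rRNAs were in mt-Rnr2 (log2 ratio 0.249, interval 0.247 to 0.251), mt-Co1 (0.25, 0.24 to 0.26), mt-Nd6 (0.24, 0.23 to 0.25) and, downward, mt-Nd2 (−0.24, −0.25 to −0.23). mt-Rnr1 was at 0.08 and mt-Nd5 at 0.05, while mt-Nd1, mt-Nd4 and mt-Cytb were at −0.04, −0.09 and −0.10. The 2 rRNAs together were 1.18-fold higher and the mRNAs 1.02-fold.

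Nuclear genes had a median log2 ratio of −0.09 in this comparison, so the level of the mRNAs depended on the reference. Relative to that median, the mRNA median was 0.05 higher, with 5 of 7 mRNAs above it, and the rRNA median was 0.26 higher. Of the 9 tRNAs, 8 had log2 ratios above 0, from 0.10 (mt-Tp and mt-Tv) to 0.34 (mt-Tf), and mt-Tw was at −0.28. Intervals of mt-Tv, mt-Tw and mt-Ts2 included 0. The tRNAs of the heavy-strand group were together 1.15-fold higher (interval 1.12 to 1.18) and those of the light-strand group 1.11-fold higher (1.07 to 1.15), and these intervals overlapped. The counting options listed in the study's methods include none for strand. Reads antisense to a tRNA therefore cannot be told apart from its own. For the mRNAs, mt-Nd6 exceeded the median of the heavy-strand mRNAs by 0.30 on the log2 scale. Among all 1.5-fold calls of nuclear genes 35.8% were upward, a share that became 50.8% with DESeq2 size factors.

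The 2 hairpin pools were then compared to see whether mitochondrial transcripts differed after YY1 knockdown. Yy1 itself had 79.3 CPM in WT, 77.0 in XiΔXist, 156 with shSCR and 60.7 with shYY1, which is 0.388 times shSCR (interval 0.301 to 0.495). All 9 mitochondrial genes with at least 50 reads were higher in shYY1, and the mRNAs together more so than the rRNAs. The mRNAs together were 1.28-fold higher (interval 1.264 to 1.304) and the rRNAs 1.118-fold higher (1.115 to 1.122). The nuclear median log2 ratio was −0.01.

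mt-Nd6 was 1.56-fold higher in shYY1 (interval 1.47 to 1.66) and mt-Nd2 1.55-fold (1.46 to 1.65), and these 2 of 9 genes passed 1.5-fold. The background was 7.03% of all 8245 genes at least 1.5-fold higher and 7.12% at least 1.5-fold lower, and it rests largely on genes with few reads. With at least 200 reads the calls among all genes fell from 1167 to 197, and the mitochondrial count stayed at 2. The intervals of mt-Nd6 and mt-Nd2 extended below 1.5, and scaled to all allelic reads, mitochondrial ones included, neither passed. That scaling also moved the upward share of 1.5-fold calls among nuclear genes from 49.6% to 37.4%. The other mRNAs were mt-Nd1 at 1.46-fold, mt-Nd5 at 1.39, mt-Nd4 at 1.32, mt-Cytb at 1.31 and mt-Co1 at 1.15. The 5 complex I mRNAs together were 1.44-fold higher (interval 1.40 to 1.47). The single mRNAs of complexes III and IV lay below that, as did mt-Nd4 and mt-Nd5 of complex I. Among nuclear genes with at least 50 reads, which include many of low depth, the share with a larger log2 ratio was 5.55% for mt-Nd6, 5.74% for mt-Nd2 and 27.7% for mt-Co1. mt-Nd6 exceeded the median of the heavy-strand mRNAs by 0.21 on the log2 scale. The ratio of mt-Nd6 reads to those of all heavy-strand mRNAs was 0.0573 in WT, 0.0668 in XiΔXist, 0.0699 with shSCR and 0.0863 with shYY1. It was therefore higher in each perturbed pool than in its own control. mt-Nd6 overlaps mt-Nd5 on the other strand, and the options that the study's methods list for the counting include none for strand, so reads antisense to mt-Nd6 cannot be told apart from its own.

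**Figure D5:**
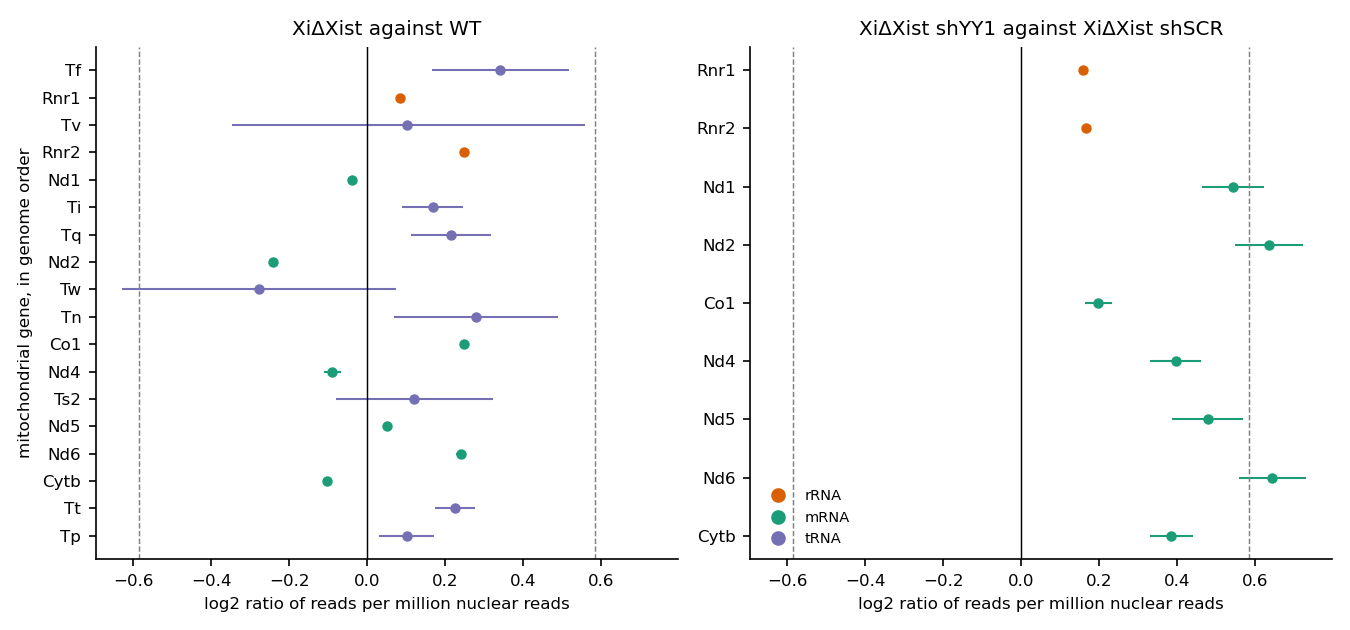
Points show the log2 ratio of CPM for each mitochondrial gene with at least 50 reads in the 2 pools compared, with exact 95% intervals for counting error, for XiΔXist against WT (left) and XiΔXist shYY1 against XiΔXist shSCR (right). Dashed lines mark 1.5-fold. The 18 genes on the left lie on both sides of 0 within those lines, and the 9 on the right all lie above 0, with mt-Nd2 and mt-Nd6 past the line.

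Values of untreated XiΔXist and XiΔXist shSCR cells, which share the deletion, are set side by side as a description. mt-Rnr1 was 27.4-fold higher in shSCR and mt-Rnr2 1.43-fold. mt-Nd4 was 1.40-fold higher, whereas mt-Nd1 was 14.2-fold, mt-Nd5 6.32-fold, mt-Nd2 5.57-fold, mt-Cytb 5.30-fold, mt-Nd6 4.15-fold and mt-Co1 2.85-fold lower. Of 18 genes, 1 was at least 1.5-fold higher and 15 at least 1.5-fold lower, against 52.3% and 27.8% of all 10444 genes. The 15 were 6 mRNAs and 9 tRNAs. Read length differed between these pools, so the counts cannot be read as a fall of mitochondrial transcripts. The log2 ratios of nuclear genes differed with their base composition in the same pools. In 4 equal bins of nuclear genes from the lowest to the highest GC content, the median log2 ratio was −0.89, 0.08, 1.40 and 3.66. The GC content of the mRNAs with reads was 34.1% to 39.9%, within the lowest bin (up to 43.2%), and that of mt-Rnr1 was 35.8%. mt-Nd1, which was lower in shSCR, had 37.6% GC. In shYY1 against shSCR the medians of the GC bins ran from 0.04 to −0.09 and in XiΔXist against WT from −0.07 to −0.14, and the part of base composition in the mitochondrial values was not tested.

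The 4 lists used covered mitochondrial transcription, replication of mitochondrial DNA, mitochondrial RNA processing and decay, and nuclear regulators of mitochondrial genes. They held 46 nuclear genes in all. In XiΔXist against WT, 41 had at least 50 reads, of which 2 were at least 1.5-fold higher and 2 at least 1.5-fold lower, beside 9.15% and 16.4% of all genes. They were 1 higher and 1 lower of 9 genes of transcription, 0 of 7 of replication, 1 higher of 19 of RNA processing and decay, and 1 lower of 6 nuclear regulators. In shYY1 against shSCR, 35 had at least 50 reads, with 1 higher and 4 lower, beside 7.03% and 7.12% of all genes. These were 0 of 3 genes of transcription, 1 lower of 7 of replication, 1 lower of 18 of RNA processing and decay, and 1 higher and 2 lower of 7 nuclear regulators. The 2 lower regulators included Yy1, which the hairpin targets, so its call was set by the design. The list medians of 41 and 35 genes were −0.05 and −0.0012 on the log2 scale, beside −0.09 and −0.01 over all nuclear genes.

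Among the transcription factors of mitochondria, the RNA polymerase Polrmt had 0.464 CPM in WT, 1.18 in XiΔXist, 65.4 with shSCR and 54.8 with shYY1. Its 9 reads in WT and 26 in XiΔXist were too few for a comparison of the untreated pools. Tfam, which packages mitochondrial DNA and starts its transcription, had 162 in WT, 179 in XiΔXist, 108 with shSCR and 154 with shYY1, where it was 1.43 times shSCR (interval 1.16 to 1.76). The initiation factor Tfb2m had 52, 78, 10 and 10 reads in the same order, too few for a comparison of the hairpin pools. Of the termination factor family, Mterf1b had 66 reads in WT and 124 in XiΔXist and was 1.66-fold higher (interval 1.22 to 2.27). Mterf4 had 88 and 61 and was 0.611 times WT (0.433 to 0.856). Mterf1b has a close paralog, Mterf1a, so its count is uncertain.

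Of the replication genes, RNase H1 (Rnaseh1) had 40 reads with shSCR and 25 with shYY1, or 0.624 times shSCR with an interval (0.363 to 1.05) that included 1. Among genes of RNA processing and decay, Mtpap, the poly(A) polymerase of mitochondrial mRNAs, had 103 CPM with shSCR and 66.6 with shYY1, or 0.647 times shSCR (0.499 to 0.836). Its levels in WT and XiΔXist were 127 and 149. Fastkd3, of a family of mitochondrial RNA-binding proteins, had 121 in WT and 186 in XiΔXist, or 1.53-fold (1.46 to 1.61), and 46.9 with shSCR and 69.3 with shYY1.

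Of the nuclear regulators of mitochondrial genes, the coactivator Pprc1 had 33.9 CPM in WT and 18.1 in XiΔXist, or 0.534 times WT (0.471 to 0.606). In the hairpin pools Pprc1 had 368 and 303. The proto-oncogene Myc had 133 reads with shSCR and 74 with shYY1, or 0.556 times shSCR (0.413 to 0.744). The orphan receptor Esrra had 30 and 50, or 1.67-fold (1.04 to 2.71). Both intervals lay to one side of 1, and each rests on a single pool per condition.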

How the data were processed

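RNA-seq of MEFs (GRCm38/mm10) was processed by the authors with TopHat on a genome masked at SNPs, removal of reads of mapping quality under 30, allele splitting with SNPsplit and counting over exons with featureCounts 1.6.3. The listed counting options hold none for strand, and the annotation release was not given in the sources used here. The deposited values are raw counts per gene and strain, 8 columns of pooled replicates for 8 samples in 4 groups, with 2393545 to 28329701 allelic reads per pool. Gene names came from GENCODE M21 (45229 of 46078 identifiers matched). Here both strains were summed and scaled to nuclear reads. Log2 ratios used a prior of 0.5 reads, genes needed 50 reads in both pools together, and 1.5-fold was called. Intervals were Clopper-Pearson, exact Poisson or conditional binomial (scipy 1.17.1). Copies were sought with blastn 2.17.0 (word size 16, at least 85% identity, at least 100 aligned bases) in nuclear transcripts. Scripts were tested on simulated counts. The members and gene lists were chosen with earlier results of these data known. Every mitochondrial gene was accounted for, those with 50 reads in all pools, and Polrmt, Tfam, Tfb2m, Yy1 and each listed gene past 1.5-fold were named. Alternatives were other scalings (edgeR 4.0.16, DESeq2 1.42.0), read minimums, a fold of 2, 1 added CPM and 129 reads alone.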

Additional observations from a re-analysis of the deposited data

How the results depend on the processing

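No paired analysis was possible because the deposited columns pool the replicates of each group, and for the same reason no replicate could be left out. Values here are log2 ratios unless stated. For XiΔXist against WT, the mitochondrial total (0.18), rRNA (0.24) and mRNA median (−0.038) became 0.14, 0.20 and −0.076 when scaled to all allelic reads. With edgeR's TMM factors they were 0.26, 0.32 and 0.045, and with DESeq2 size factors 0.32, 0.38 and 0.11, so the mRNA median changed sign under both, as the nuclear median moved from −0.09 to −0.0072 and 0.05. Without the 100 most read nuclear genes, a setting chosen after seeing the data, they were 0.20, 0.26 and −0.014, and with 129 reads alone 0.18, 0.25 and −0.032. For shYY1 against shSCR, the total (0.17) and rRNA (0.16) became 0.10 and 0.097 when scaled to all allelic reads, 0.15 and 0.14 with DESeq2 and 0.17 and 0.17 with TMM, and the mRNA median (0.48) stayed between 0.41 and 0.48 under every setting run.

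The number of all genes past 1.5-fold fell with stricter settings. For XiΔXist against WT it was 2749, and 4897 with at least 10 reads, 1624 with at least 200, 9660 with no minimum and 1336 at 2-fold. For shYY1 against shSCR it was 1167, and then 3314, 197, 7825 and 245. The mitochondrial count for XiΔXist against WT rose from 0 to 1 with no minimum, through a tRNA with 6 reads (mt-Ta), and that for shYY1 against shSCR rose from 2 to 3 with no minimum and fell to 0 at 2-fold.

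Without the rRNAs, the 129 share of mitochondrial reads was 99.64% (WT), 99.66% (XiΔXist), 99.98% (shSCR) and 99.99% (shYY1). Without the most read gene it was 99.68% in WT, 99.70% in XiΔXist and 99.99% for shYY1. From 129 reads alone the rRNA to mRNA ratio was 2.20 in WT and 2.54 in XiΔXist. The hairpin pools had lower depth, with a limit of 3 reads at 1.98 CPM in shSCR, beside 332 CPM of mt-Tt in XiΔXist. Why most tRNAs had no reads in the hairpin pools was not tested. All intervals leave out biological variation.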

Other observations

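Of 21 annotated nuclear copies with at least 100 aligned bases, 18 had a row in the count tables, and 4 of these had reads in WT, 4 in XiΔXist, 1 with shSCR and 0 with shYY1. The 4 with reads in WT or XiΔXist were chosen for naming after their values were seen, and unlike the mitochondrial genes they were not all read from 129. Gm11512 (chr11:90538484-90539146), a copy of part of mt-Co1 at 90.7% identity, had 21 reads of 129 and 27 of CAST in WT and 23 and 20 in XiΔXist. Gm11410 (chr4:80003989-80005131), a copy of mt-Cytb at 92.9% identity, had 0 of 129 and 21 of CAST in WT and 1 and 20 in XiΔXist. Gm20594 (chr6:79817916-79818364), which matches part of mt-Rnr2 at 88.4% identity, had 19 and 2 in WT and 29 and 1 in XiΔXist, and Gm11408 (chr4:80003396-80003914), a copy of mt-Nd6 at 93.6% identity, had 6 and 1 in WT and 10 and 0 in XiΔXist. All copies together held 97 reads in WT, beside 4907868 reads of the mitochondrial genes.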
